A study of Homo sapiens with 46 samples.

Results

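After 4 days of the treatment that degrades Ku80, colon carcinoma cells carried more RNA from most interferon-stimulated and antigen-presentation genes tested and less from most genes of DNA replication, of mitosis and of serine, one-carbon and nucleotide synthesis. The cells were HCT116, a human colon carcinoma line, in which Ku80 was fused to an auxin-inducible degron, a tag that lets a plant hormone direct the protein to the proteasome. The IAA group received 100 µM indole-3-acetic acid (IAA, the auxin) together with 0.5 µg/mL doxycycline for 4 days, and the DMSO group received the solvent for 2 days. Both groups were made from the same degron clones 1, 7 and 9, with 1 library per clone and group, so 6 of the 46 libraries of the series were compared, and every expressed gene was included: 18877 of the 61228 genes in the deposited table passed the filter on low counts. Each clone is a line grown from a single edited cell, and every cell of both groups carries the degron. IAA against DMSO therefore holds Ku80 loss, both compounds and the longer time in culture, and these cannot be told apart in the comparison. The 4-day libraries were also set beside 3 other sets of the same design: the same clones after 2 and 6 days of IAA (3 libraries each), the same clones given a CDK4/6 inhibitor for 4 days with or without IAA (3 libraries each), and MAVS-knockout degron clones 1, 13 and 15 given IAA or DMSO for 4 days (3 libraries each). Poly-A RNA was sequenced, and levels are given as CPM, counts scaled to a common library size with TMM normalization factors.

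Ku is a ring of Ku70 and Ku80 that slides onto broken DNA ends, recruits the kinase DNA-PKcs and starts non-homologous end joining; human cells hold far more of it than other mammals and lose viability without it. Ku also binds structured RNA. Inside the cell, RIG-I and MDA5 sense double-stranded RNA and signal through MAVS on the mitochondrial surface, which switches on interferon genes; secreted interferon then acts through JAK kinases and a complex that holds STAT2 and IRF9 on a broad set of target genes.

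The libraries held 21.8, 17.1 and 12.8 M counts after IAA (clones 1, 7 and 9) and 10.1, 13.7 and 9.96 M with DMSO, so low genes were measured less precisely in the DMSO libraries. Transcripts encoded in mitochondrial DNA took 8.97 ± 1.36% of the counts after IAA and 5.02 ± 0.74% with DMSO (SD, n = 3 each). Colon epithelial markers summed to 4759, 3242 and 3658 CPM after IAA and to 2472, 2527 and 2546 CPM with DMSO, with VIL1, CDH17, LGALS4 and CEACAM5 at or near 0 in all 6 libraries. EPCAM, an epithelial adhesion molecule, read 210.1, 236 and 292 CPM after IAA and 303, 266 and 259 CPM with DMSO, and the groups overlapped. Leukocyte markers summed to 115, 56.7 and 45.9 CPM after IAA and to 6.22, 8.06 and 3.47 CPM with DMSO; PTPRC, CD3D, CD3E and MS4A1 were at 0 in every library, and CD68, a lysosomal glycoprotein that epithelial cells also make, gave nearly all of that sum.

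In the edgeR quasi-likelihood test, 3379 of the 18877 genes were higher after IAA (17.9%) and 2819 lower (14.9%), 32.8% in either direction, at an adjusted p under 0.05, with a median log2 change of 0.04 over all genes. At least 2-fold changes were called for 1297 genes upward (6.87%) and 1022 downward (5.41%). The 3 IAA libraries lay above the 3 DMSO libraries for 3429 genes (18.2%) and below them for 3406 (18%). With the clone as a block and only these 6 libraries in the fit, 2015 genes were called higher and 1948 lower. With limma on log2(TPM + 1), 41.3% of the calls were upward, against 54.5% with edgeR. Against DMSO libraries of 1 day of clones 1 and 9 in place of the 2-day ones, 4759 genes were called higher and 5511 lower. Those 1-day libraries detected 25025 and 23991 genes, against 19454 to 19933 in the 2-day ones, and the part of that difference in the calls was not tested. In bulk RNA, fewer cells of a kind and less RNA per cell cannot be told apart.

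**Figure D1:**
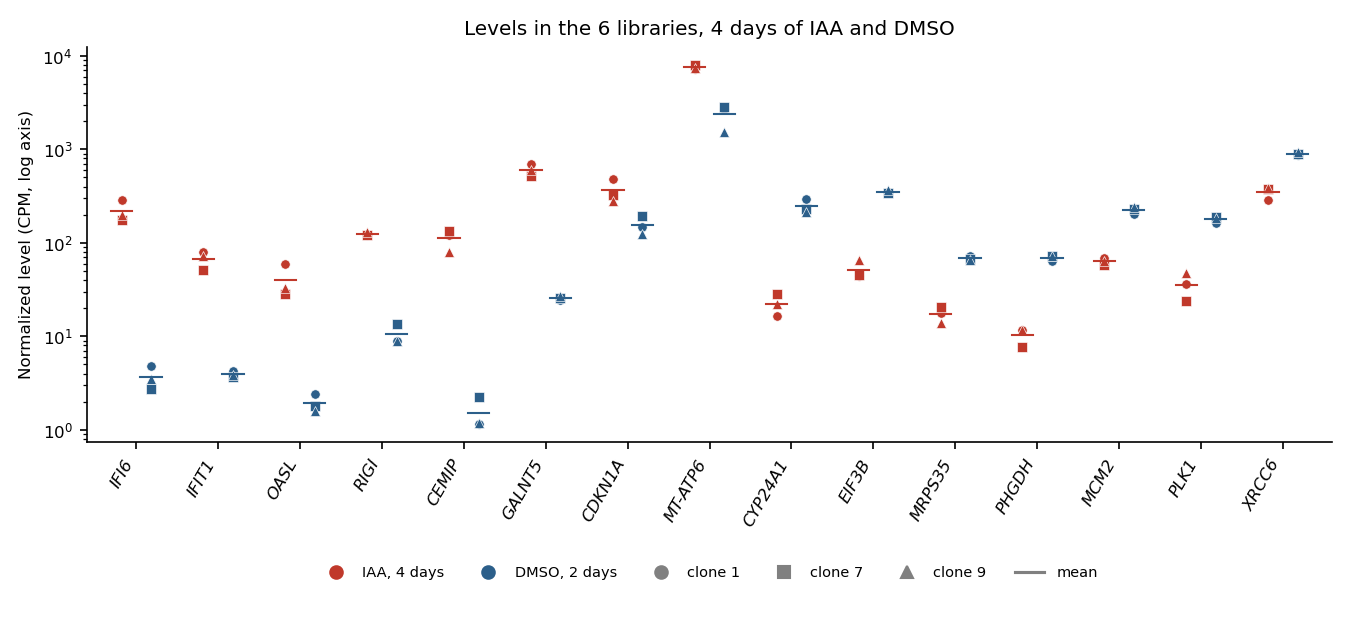
Normalized level (CPM, log axis) of 15 genes in the 3 IAA libraries (red, left of each pair) and the 3 DMSO libraries (blue), with 1 symbol per clone and a line at the group mean. For each gene shown the IAA libraries lie all above or all below the DMSO libraries, from IFI6 at 177 to 286 CPM after IAA against 2.76 to 4.78 CPM with DMSO, to EIF3B at 44.6 to 64.9 CPM after IAA against 339.9 to 367 CPM with DMSO.

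XRCC5, which encodes Ku80, is the targeted gene, but the degron acts on the protein and its mRNA does not show depletion. XRCC5 read 166, 219 and 231 CPM after IAA (clones 1, 7 and 9) and 301, 287 and 282 CPM with DMSO. All 3 IAA libraries were lower, with a log2 change of -0.50 ± 0.13 (edgeR adjusted p = 0.00321), a call that limma on TPM did not make. XRCC6, which encodes the partner subunit Ku70, read 290.2, 378 and 386 CPM after IAA and 859, 891 and 935 CPM with DMSO, a log2 change of -1.35 ± 0.11 (edgeR adjusted p = 5.16e-10) with no overlap between the groups. PRKDC, the gene of the kinase DNA-PKcs that Ku brings to ends, read 518, 694 and 709.5 CPM after IAA and 1104, 1153 and 1137 CPM with DMSO and changed by -0.82 ± 0.15 (edgeR adjusted p = 7.51e-05). Of 24 end-joining genes tested, 3 rose, 9 fell and the median log2 change was -0.29. Among those that fell were POLQ, the polymerase of microhomology-mediated joining (-1.81 ± 0.20), and PARP1, the sensor of DNA breaks that makes poly(ADP-ribose) (-1.17 ± 0.09). DCLRE1C, the nuclease Artemis that opens hairpin ends, rose by 0.82 ± 0.13. LIG4, the ligase of the pathway, read 42.8, 55.8 and 45.4 CPM after IAA and 33.8, 32.3 and 32.8 CPM with DMSO. Its edgeR adjusted p was 0.0207, and 0.0586 with the clone block, and the call was lost in 4 of 14 alternative runs.

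Interferon-stimulated genes rose in nearly every member tested. Of 22 interferon-induced genes whose products bind RNA, 19 rose and none fell (median log2 change 2.08, against 0.04 over all genes), with ZC3HAV1 and SLFN11 among those not called. Of 44 further interferon-induced genes encoding membrane proteins, GTPases, ADP-ribosyltransferases and the ubiquitin-like system, 42 rose (median 2.58), and APOL1 and UBA7 were not called. The promoters of such genes often hold the interferon-stimulated response element, the sequence bound by the complex that holds STAT2 and IRF9. Its core, searched on both strands as GAAA, any 2 bases and GAAA again, overlaps allowed, from 250 bases before to 50 after the RefSeq start, was present in 337 of the 12138 tested genes with a promoter sequence (2.78%). It was found in 57 of 810 genes that rose at least 2-fold (7.04%), in 14 of 725 that fell at least 2-fold (1.93%), in 10 of 16 RNA-binding members and in 22 of 33 of the other interferon-induced members. A match describes these letters and not a bound site. The 170 bases before the start of 3 of these genes are shown 5′ to 3′ on the gene's strand, because they hold 2 or more matches each, which are in capitals (RefSeq, GRCh38.p14). The regions are chr1:27672193-27672362 on the minus strand for IFI6, chr10:89392453-89392622 on the plus strand for IFIT1, where the letters stand on the opposite strand, and chr1:1013327-1013496 on the plus strand for ISG15, where the matches overlap.
IFI6: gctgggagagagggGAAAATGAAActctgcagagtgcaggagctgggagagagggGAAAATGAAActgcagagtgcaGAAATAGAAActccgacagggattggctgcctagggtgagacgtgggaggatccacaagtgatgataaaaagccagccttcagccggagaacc
IFIT1: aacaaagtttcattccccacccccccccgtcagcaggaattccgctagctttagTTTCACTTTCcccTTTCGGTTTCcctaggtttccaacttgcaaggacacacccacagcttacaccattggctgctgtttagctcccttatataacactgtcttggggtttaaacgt
ISG15: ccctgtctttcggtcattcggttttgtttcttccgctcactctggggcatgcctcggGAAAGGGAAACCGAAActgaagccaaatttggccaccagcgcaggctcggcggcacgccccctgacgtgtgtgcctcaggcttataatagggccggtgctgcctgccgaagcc

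IFI6, a small membrane protein of mitochondria and the endoplasmic reticulum, read 286, 177 and 197 CPM after IAA (clones 1, 7 and 9) and 4.78, 2.76 and 3.47 CPM with DMSO. Every IAA library was far above every DMSO library, a log2 change of 5.92 ± 0.28 (edgeR adjusted p = 5.99e-14). IFIT1, which binds RNA with an unmethylated cap, read 79.1, 51.4 and 72.3 CPM after IAA and 4.30, 3.63 and 3.86 CPM with DMSO (4.11 ± 0.37, edgeR adjusted p = 3.43e-09). ISG15, the ubiquitin-like modifier, chosen after its values were seen, read 121, 37.9 and 71.5 CPM after IAA and 10.1, 7.11 and 9.91 CPM with DMSO (3.09 ± 0.28, edgeR adjusted p = 3.43e-09), and clone 7 was lowest after IAA for all 3 genes. OAS1, OAS3 and OASL belong to the oligoadenylate synthetase family, which answers double-stranded RNA by activating RNase L (OASL is a member without that catalytic activity). OAS3 read 342, 235 and 291 CPM after IAA and 70.6, 67.6 and 83.0 CPM with DMSO, and OASL 59.1, 28.4 and 33.2 CPM after IAA and 2.39, 1.81 and 1.59 CPM with DMSO. OAS1 read 40.9, 8.19 and 11.2 CPM after IAA and 0.287, 0 and 0.0991 CPM with DMSO, so its log2 change of 7.34 ± 0.96 rests on 4 counts in the DMSO group. EIF2AK2, the kinase PKR that halts translation on double-stranded RNA, was higher in all 3 IAA libraries at 414, 498 and 494 CPM, against 188, 174 and 179.8 CPM with DMSO (1.37 ± 0.13, edgeR adjusted p = 8.71e-09). ADAR, which edits adenosine in double-stranded RNA, read 638, 637 and 676 CPM after IAA and 456, 452 and 423 CPM with DMSO, and its change of 0.55 ± 0.08 was the smallest among the called RNA-binding members. SAMD9, an antiviral translation inhibitor, changed by 3.61 ± 0.23, and SLFN5, a Schlafen family member, by 2.66 ± 0.14.

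Among the other interferon-induced members, PARP9 and DTX3L, which form a complex that modifies proteins with ADP-ribose and ubiquitin, moved together. PARP9 read 156, 173 and 162 CPM after IAA and 18.5, 19.0 and 16.6 CPM with DMSO (3.18 ± 0.15, edgeR adjusted p = 5.99e-14), and DTX3L 143, 142 and 154 CPM after IAA and 24.5, 25.6 and 27.5 CPM with DMSO (2.50 ± 0.12). The 3 clones lay close together in both groups, far from any overlap. IFITM1, a membrane protein that blocks viral entry, read 32.7, 14.6 and 12.4 CPM after IAA and 0.669, 0.944 and 0.595 CPM with DMSO, and BATF2, a leucine-zipper transcription factor, 27.7, 3.37 and 11.4 CPM after IAA and 1.63, 0.798 and 0.396 CPM with DMSO. For both, clone 1 was highest after IAA by 2-fold or more. SAMD9L, a relative of SAMD9, and XAF1, a pro-apoptotic interferon target, chosen after their values were seen, had 0 counts in the 3 DMSO libraries and were at least 40.4-fold and 42.4-fold higher after IAA, against a floor of 3 counts over the DMSO group. GBP4 and GBP5 did not pass the count filter.

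Both RNA sensors rose. RIGI, the gene of the sensor RIG-I, read 122, 121 and 131 CPM after IAA and 8.99, 13.6 and 8.92 CPM with DMSO (3.56 ± 0.24, edgeR adjusted p = 3.50e-11). IFIH1, the gene of MDA5, read 69.9, 87.5 and 82.1 CPM after IAA and 12.7, 7.91 and 13.4 CPM with DMSO (2.83 ± 0.22, edgeR adjusted p = 2.39e-10). Both sensors are themselves interferon-stimulated genes, and no library of one group overlapped the other. Their adaptor MAVS read 459, 345 and 415 CPM after IAA and 313, 341 and 319 CPM with DMSO and was not called (0.33 ± 0.14, edgeR adjusted p = 0.0859). In 3 of 14 alternative runs MAVS was called higher. In the RIG-I-like receptor list, 10 of 20 tested genes rose and none fell (median 0.54), among them IRF7, the interferon regulatory factor that amplifies interferon production (3.31 ± 0.33), and TRIM25, a ubiquitin ligase of RIG-I (0.67 ± 0.10). Of 17 JAK-STAT and IRF genes, 10 rose and none fell. IRF9, the DNA-binding member of the interferon-stimulated transcription complex, read 82.3, 55.2 and 67.4 CPM after IAA and 17.3, 16.3 and 13.8 CPM with DMSO (2.11 ± 0.24, edgeR adjusted p = 1.44e-07). STAT2, of the same complex, was also called (1.52 ± 0.12), and STAT3, which carries interleukin-6 signals, changed by 0.60 ± 0.09.

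Interferon transcripts themselves were scarce. IFNB1, IFNA1, IFNA2, IFNK and IFNG had 0 counts in all 6 libraries, which allows up to 0.0580 CPM in the IAA group and 0.0889 CPM in the DMSO group. IFNL1, a type III interferon, had 7, 0 and 2 counts after IAA (clones 1, 7 and 9) and none with DMSO. IFNL2 had 8, 3 and 1 counts and IFNL3 10, 1 and 0 counts after IAA, with none with DMSO; these near-identical copies share reads, and the split between them is uncertain. IFNE, a type I interferon of epithelia, had 24, 19 and 34 counts after IAA and 4, 1 and 1 with DMSO (3.13 ± 0.96, edgeR adjusted p = 0.0132), a call lost without the DMSO library of clone 7 or 9 or the IAA library of clone 9. The floors on such counts cover counting error only. Of 9 ligand and receptor genes tested, 4 rose and 1 fell: IFNAR1, a chain of the type I receptor (0.59 ± 0.14, not called with limma on TPM), and IL10RB, a chain of the type III receptor (0.65 ± 0.18), were higher. IFNAR2, the other type I chain, read 19.2, 22.8 and 19.5 CPM after IAA and 23.3, 29.1 and 29.8 CPM with DMSO, with an edgeR adjusted p of 0.0324, and 0.157 with the clone block. The IFNAR2 call was lost in 9 of 14 alternative runs. Of 12 tested DNA-sensing and endosomal genes, 3 rose and 3 fell. CGAS, IFI16, AIM2, ZBP1 and TLR7 were below the count filter, and STING1, the adaptor of cGAS, read 14.6, 5.24 and 10.5 CPM after IAA and 14.8, 12.1 and 11.9 CPM with DMSO and was not called (edgeR adjusted p = 0.475). RNASEH2A, the catalytic subunit of the RNase that removes RNA from DNA hybrids, fell (-1.14 ± 0.18, edgeR adjusted p = 2.34e-05).

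Antigen presentation rose with the interferon-stimulated genes: 16 of 22 tested genes were called higher and none lower (median 1.21). Of the class I chains, which display peptides to T cells, HLA-B changed by 1.89 ± 0.13, HLA-C by 1.55 ± 0.13 and HLA-E by 1.31 ± 0.08; the class I genes are similar in sequence, and reads may be shared among them. B2M, the light chain of all class I molecules, read 542, 635 and 693 CPM after IAA and 279, 273 and 220.1 CPM with DMSO (1.28 ± 0.13).

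Of 27 tested NF-kB subunits and targets, 8 rose and 4 fell (median 0.05), with 5 rising with limma on TPM or without the IAA library of clone 9. RELB, a subunit of the alternative NF-kB pathway, rose (1.07 ± 0.24, edgeR adjusted p = 0.0011), as did BIRC2, an inhibitor of apoptosis that acts in TNF signalling (0.64 ± 0.13). SOD2, the mitochondrial superoxide dismutase and a classical NF-kB target, fell (-0.72 ± 0.10, edgeR adjusted p = 2.59e-06). CXCL8, the neutrophil chemokine interleukin-8, stayed under 1 CPM in all 6 libraries. Of 19 tested cytokines and chemokines, 6 rose and none fell with the 2-day controls, 11 rose against the 1-day controls and 10 against both averaged. IL15, which sustains natural killer and T cells, read 8.41, 16.6 and 9.39 CPM after IAA and 2.49, 4.06 and 2.68 CPM with DMSO (1.89 ± 0.34, edgeR adjusted p = 0.000106). IL18 changed by 1.22 ± 0.21, the chemokine CXCL16 by 1.03 ± 0.17, the stress cytokine GDF15 by 0.81 ± 0.18, and the EGF receptor ligand AREG by 1.25 ± 0.36.

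**Figure D2:**
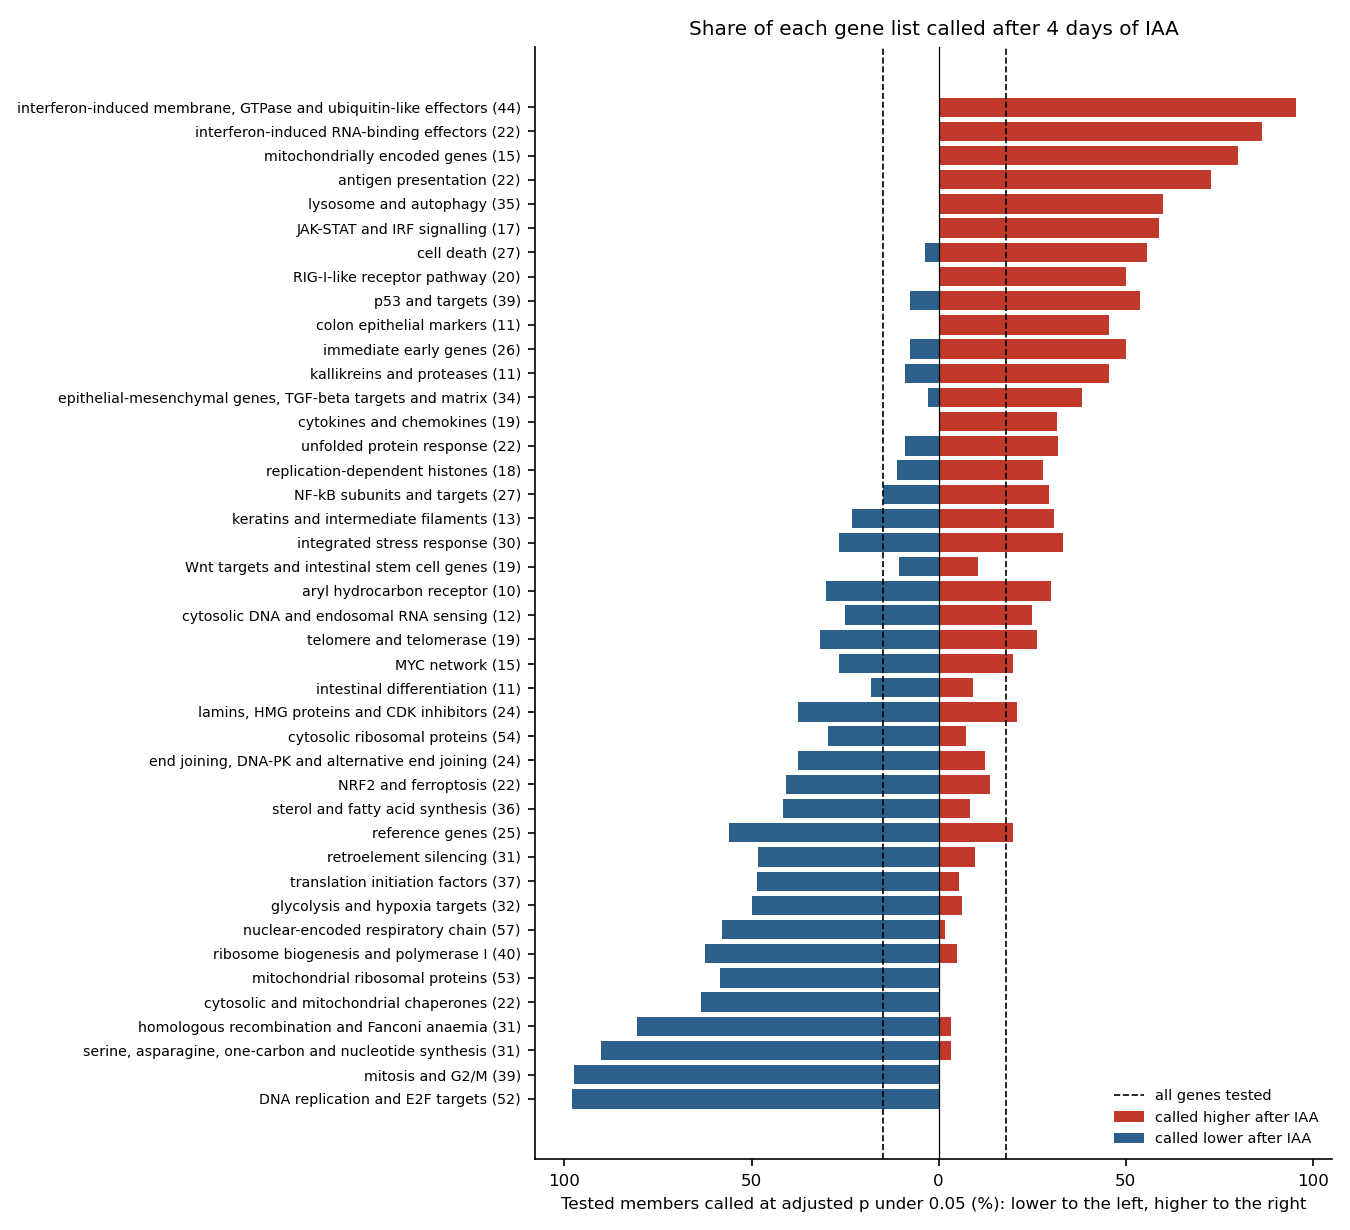
Percentage of the tested members of each gene list (number tested in brackets) called higher after IAA (red, to the right) or lower (blue, to the left) by edgeR at an adjusted p under 0.05. The dashed lines mark the shares over all genes, 17.9% higher and 14.9% lower. Over protein-coding genes alone, which had higher levels than the non-coding genes, the shares were 20.8% and 18.4%. The interferon lists reach 42 of 44 and 19 of 22 higher, and the replication and mitosis lists 51 of 52 and 38 of 39 lower.

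p53 targets and cell-death genes shifted upward by smaller amounts. Of 39 genes of the p53 list, 21 rose and 3 fell (median 0.51). CDKN1A, which encodes the cyclin-dependent kinase inhibitor p21, read 486, 325 and 278 CPM after IAA and 146, 193 and 125 CPM with DMSO (1.23 ± 0.20, edgeR adjusted p = 2.44e-05), with the 3 IAA libraries above the 3 DMSO libraries. GADD45A, a stress-induced growth-arrest gene, read 124, 162 and 140.0 CPM after IAA and 44.8, 46.8 and 45.2 CPM with DMSO (1.64 ± 0.15). ZMAT3, an RNA-binding p53 target, changed by 1.18 ± 0.16, and SESN2, a sestrin that restrains mTORC1, by 1.26 ± 0.20. MDM2, the ubiquitin ligase of p53 and its target, read 328, 463 and 390.4 CPM after IAA and 294, 329 and 328 CPM with DMSO and lay at the threshold (edgeR adjusted p = 0.0486, and 0.159 with the clone block). The MDM2 call was lost in 10 of 14 alternative runs. DDB2, a damage-recognition protein of nucleotide excision repair and a p53 target, fell (-0.51 ± 0.13, edgeR adjusted p = 0.00275), and KITLG, the ligand of KIT, read 291, 689 and 486 CPM after IAA against 1245, 1355 and 1136 CPM with DMSO (-1.35 ± 0.25). Both of these calls were lost against the 1-day controls. Among 27 cell-death genes 15 rose and 1 fell (median 0.60). CFLAR, the inhibitor of caspase-8, changed by 1.46 ± 0.14, CASP8 itself by 0.80 ± 0.14, BCL2L11, which encodes the pro-apoptotic BIM, by 0.87 ± 0.14, and the decoy TRAIL receptor TNFRSF10C by 1.59 ± 0.25. The 1 that fell was BCL2, at 2.58 CPM or less in all 6 libraries except 3.12 CPM in the DMSO library of clone 7, and with the clone block its edgeR adjusted p was 0.133. The BCL2 call was lost in 4 of 14 alternative runs.

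DNA replication and mitosis fell almost without exception. Of 52 replication and E2F-target genes, 51 fell and none rose (median log2 change -1.42), and CCNE1 was not called. Of 39 mitosis and G2/M genes, 38 fell and none rose (median -1.80), and ECT2 was not called. E2F factors bind sites in replication promoters, and the cell-cycle homology region (CHR) in mitotic promoters is bound by the DREAM and MuvB complexes. An E2F motif, TTTCCCGC or TTTGGCGC on either strand, was present in 21 of 44 promoters of the replication list, in 8.14% of genes that fell at least 2-fold, in 1.85% of those that rose and in 3.58% of all. The CHR letters TTTGAA on either strand were in 23 of 32 mitosis promoters, in 18.3% of genes that fell at least 2-fold, in 10.1% of those that rose and in 9.83% of all. CCAAT, which often stands beside them, was in 25 of 32 mitosis promoters and in 36.5% of all. The 170 bases before the RefSeq start are shown for HELLS, with 2 E2F motifs in capitals, and for PLK1 and CENPA, with the CHR letters in capitals 29 and 18 bases before the start. They lie at chr10:94545618-94545787, chr16:23678719-23678888 and chr2:26785886-26786055, all on the plus strand of GRCh38.p14.
HELLS: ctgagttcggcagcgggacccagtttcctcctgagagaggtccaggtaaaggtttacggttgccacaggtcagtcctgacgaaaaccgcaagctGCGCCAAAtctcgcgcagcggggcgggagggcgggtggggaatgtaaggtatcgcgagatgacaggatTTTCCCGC
PLK1: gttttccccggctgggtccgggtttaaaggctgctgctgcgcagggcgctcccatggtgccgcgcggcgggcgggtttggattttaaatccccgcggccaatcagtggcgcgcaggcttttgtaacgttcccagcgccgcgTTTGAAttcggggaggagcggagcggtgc
CENPA: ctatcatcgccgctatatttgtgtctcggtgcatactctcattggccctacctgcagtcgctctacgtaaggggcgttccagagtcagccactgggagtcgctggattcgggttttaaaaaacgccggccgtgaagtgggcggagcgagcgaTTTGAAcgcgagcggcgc

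MCM2, a subunit of the replicative helicase, read 68.1, 57.3 and 64.1 CPM after IAA (clones 1, 7 and 9) and 202, 229 and 242 CPM with DMSO, a log2 change of -1.83 ± 0.14 (edgeR adjusted p = 2.17e-10). The groups were far apart, as they were for every replication gene described here. MCM7 of the same helicase changed by -1.79 ± 0.13, the primase subunit PRIM1 by -2.38 ± 0.20, and thymidine kinase TK1 by -2.08 ± 0.14. HELLS, a chromatin remodeller needed for DNA methylation, read 57.4, 72.3 and 64.7 CPM after IAA and 299, 338 and 296 CPM with DMSO (-2.26 ± 0.16, edgeR adjusted p = 5.22e-11). UHRF1, which brings DNMT1 to replicating DNA, changed by -1.63 ± 0.12, and DNMT1, the maintenance methyltransferase, by -0.98 ± 0.09, which limma on TPM did not call. PLK1, the kinase that drives mitotic entry, read 36.0, 23.8 and 47.0 CPM after IAA and 162, 188 and 184 CPM with DMSO (-2.33 ± 0.20, edgeR adjusted p = 1.06e-09), and clone 9 kept the most of it. CENPA, the centromeric histone, read 3.50, 2.77 and 2.45 CPM after IAA and 14.2, 17.1 and 16.4 CPM with DMSO (-2.44 ± 0.24). CCNB1, the mitotic cyclin B1, changed by -2.29 ± 0.18, and the checkpoint protein gene MAD2L1 by -2.36 ± 0.17.

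Of 24 genes for lamins, HMG proteins and CDK inhibitors, 9 fell and 5 rose (3 with limma on TPM). LMNB1, a lamin of the nuclear envelope, read 38.1, 46.9 and 48.9 CPM after IAA and 164, 203 and 196 CPM with DMSO (-2.07 ± 0.16, edgeR adjusted p = 1.39e-10). HMGB1, an abundant chromatin protein, changed by -1.60 ± 0.13 and HMGB2 by -2.25 ± 0.25. CDKN2B, which encodes the CDK4/6 inhibitor p15, rose to 16.3, 24.8 and 29.2 CPM after IAA, against 10.2, 6.68 and 7.14 CPM with DMSO (1.55 ± 0.21). Of 31 homologous recombination and Fanconi anaemia genes, 25 fell and 1 rose (median -0.93). FANCD2, the monoubiquitinated core of the Fanconi pathway, changed by -2.14 ± 0.18 on the log2 scale, with all 3 IAA libraries below the DMSO libraries. The 1 that rose, the nuclease MUS81, was called at an edgeR adjusted p of 0.0168, and at 0.0976 it was not called with the clone block. The MUS81 call was lost in 7 of 14 alternative runs. Members of the histone list, which also holds SLBP, differed among themselves: of 18 tested, 5 rose and 2 fell. The 5 that rose were H2BC21, H2BC5, H2BC12, H2BC15 and H2AC6; H2BC5 read 12.6, 9.34 and 7.42 CPM after IAA and 2.20, 2.18 and 2.28 CPM with DMSO (2.14 ± 0.37). Replication histone mRNA ends in a stem-loop without a poly-A tail, so poly-A libraries catch only its polyadenylated forms. The 2 that fell were SLBP, which binds that stem-loop (-0.60 ± 0.11), and H2AC17, whose call was lost in 8 of 14 alternative runs. Among 19 telomere and telomerase genes 5 rose and 6 fell, and with the clone block 2 rose. TERT, the telomerase catalytic subunit, read 2.32, 0.663 and 0.237 CPM after IAA and 11.2, 10.2 and 1.19 CPM with DMSO, so each clone was lower, but the DMSO library of clone 9 lay below the IAA library of clone 1 (-2.74 ± 0.79, edgeR adjusted p = 0.00876, not called with limma on TPM).

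EIF3B, a core subunit of the initiation factor eIF3, had the largest fall among the tested initiation factors, ribosome biogenesis genes and cytosolic ribosomal protein genes. It read 44.6, 45.4 and 64.9 CPM after IAA and 351, 339.9 and 367 CPM with DMSO, a log2 change of -2.77 ± 0.16 (edgeR adjusted p = 1.60e-12), with no overlap. Of 37 initiation factors 18 fell and 2 rose (median -0.34), and 11 fell without the DMSO library of clone 9. EIF3C, another eIF3 subunit with a near-identical copy in the genome, changed by -1.42 ± 0.21, and EIF5A, which helps ribosomes past stalling residues, by -1.03 ± 0.15. Of 40 ribosome biogenesis genes 25 fell and 2 rose (median -0.47), with 16 falling without the DMSO library of clone 9. NPM1, the nucleolar chaperone, read 604, 977 and 989 CPM after IAA and 1638, 1701 and 1771 CPM with DMSO (-0.99 ± 0.16), and POLR1B, a subunit of RNA polymerase I, changed by -0.83 ± 0.12. Ribosomal protein genes moved less: of 54 tested, 16 fell and 4 rose (median -0.20). This count depended on the comparison, with 27 falling with limma on TPM, 46 against the 1-day controls and 42 against both controls averaged. RPSA, a small-subunit protein, fell (-1.04 ± 0.14), while RPS25, also of the small subunit, rose (0.82 ± 0.15). The RPS25 call was lost against the 1-day controls.

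Mitochondrial genes moved in opposite directions by genome. Of 15 transcripts encoded in mitochondrial DNA, 12 rose and none fell (median 1.03), and 7 rose against the 1-day controls or both controls averaged. MT-ATP6, a subunit of ATP synthase, read 7161, 7976 and 7457 CPM after IAA and 2697, 2843 and 1546 CPM with DMSO (1.67 ± 0.31, edgeR adjusted p = 0.000103). MT-CO2, a subunit of cytochrome oxidase, read 9181, 6538 and 6349 CPM after IAA and 3142, 3230.2 and 2303 CPM with DMSO (1.35 ± 0.25). The groups did not overlap for either. The mitochondrial share of all counts moved with them, and its part in the result was not tested. The nuclear-encoded partners were lower: of 57 respiratory chain genes 33 fell and 1 rose (median -0.46), and of 53 mitochondrial ribosomal protein genes 31 fell and none rose (median -0.49). Against the 1-day controls 54 and 47 fell. ATP5F1A, the nuclear-encoded alpha subunit of ATP synthase, read 222, 277 and 283 CPM after IAA and 531, 554 and 586 CPM with DMSO (-1.10 ± 0.10, edgeR adjusted p = 7.95e-09). MRPS35, a protein of the small mitochondrial ribosomal subunit, read 17.6, 20.4 and 13.7 CPM after IAA and 72.6, 67.4 and 66.1 CPM with DMSO, a change of -1.99 ± 0.13 (edgeR adjusted p = 8.48e-12), against a list median of -0.49. The 1 respiratory gene that rose, NDUFA12, had an edgeR adjusted p of 0.0254, and 0.178 with the clone block. Of 14 alternative runs, the NDUFA12 call was lost in 7 and its change turned round in 2.

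Of 30 genes of the integrated stress response, in which phosphorylated eIF2 slows translation and raises ATF4, 10 rose and 8 fell (median 0.30). DDIT3, which encodes the transcription factor CHOP, read 27.0, 38.2 and 27.0 CPM after IAA and 5.83, 7.84 and 5.85 CPM with DMSO (2.23 ± 0.23, edgeR adjusted p = 3.14e-08). PPP1R15A, which encodes GADD34, the phosphatase subunit that ends the response, read 164, 135 and 145 CPM after IAA and 27.0, 30.3 and 30.2 CPM with DMSO (2.34 ± 0.23). Both were higher in every IAA library. ATF4 read 451, 390.0 and 321 CPM after IAA and 215, 261 and 251 CPM with DMSO (0.68 ± 0.15, edgeR adjusted p = 0.000729), and against the 1-day controls its change was -0.16 and not called. SESN2 was also among the 10 that rose. Among the 8 that fell were the amino acid transporter gene SLC7A5 (-1.09 ± 0.27) and the cystathionine lyase CTH (-1.07 ± 0.23). Of 31 genes for serine, asparagine, one-carbon and nucleotide synthesis, 28 fell and 1 rose (median -0.90). PHGDH, which commits glucose carbon to serine, read 11.5, 7.65 and 11.6 CPM after IAA and 63.6, 73.0 and 72.0 CPM with DMSO (-2.76 ± 0.20, edgeR adjusted p = 7.04e-11). PSAT1, the next enzyme, changed by -2.18 ± 0.18, CAD, which starts pyrimidine synthesis, by -1.47 ± 0.12, PAICS of purine synthesis by -1.51 ± 0.12, and the folate enzyme MTHFD1 by -1.47 ± 0.11. The 1 that rose was ASS1, an enzyme of arginine synthesis (0.66 ± 0.15). In the unfolded protein response 7 of 22 genes rose (4 with limma on TPM, which did not call ATF6) and 2 fell; those that rose included the sensors ERN1 (1.05 ± 0.13) and ATF6 (0.78 ± 0.12) and the endoplasmic reticulum co-chaperone DNAJB9 (1.04 ± 0.16). Of 22 chaperones of the cytosol and mitochondria, 14 fell and none rose (median -0.80). HSP90AB1 read 1580.3, 2174 and 2731 CPM after IAA and 4960.2, 5145 and 6022 CPM with DMSO (-1.31 ± 0.16), and the mitochondrial chaperonin HSPD1 469, 719 and 879 CPM after IAA and 1766, 1841 and 2047 CPM with DMSO (-1.45 ± 0.16).

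Lysosomal genes rose while glycolytic genes fell. Of 35 lysosome and autophagy genes 21 rose and none fell (median 0.49). MAP1LC3B, the autophagosome protein LC3B, read 168, 212 and 186 CPM after IAA and 79.8, 74.0 and 74.4 CPM with DMSO (1.31 ± 0.14, edgeR adjusted p = 3.85e-08). Its relative GABARAPL1 changed by 1.33 ± 0.13, and TFE3, a transcription factor of lysosomal genes, by 1.21 ± 0.10. CD68, the lysosomal glycoprotein that gave the leukocyte marker sum, read 114, 55.9 and 45.1 CPM after IAA and 5.74, 7.40 and 2.38 CPM with DMSO (3.77 ± 0.48, edgeR adjusted p = 6.88e-07). Of 32 genes of glycolysis and hypoxia 16 fell and 2 rose (median -0.47), and 10 fell without the IAA library of clone 7. GAPDH read 2262, 2007 and 2411 CPM after IAA and 3985, 3928 and 3927 CPM with DMSO (-0.83 ± 0.09), and PGAM1, phosphoglycerate mutase, changed by -1.21 ± 0.11. The 2 that rose were NDRG1, a stress- and hypoxia-induced gene (1.23 ± 0.18), and the collagen prolyl hydroxylase P4HA2 (0.74 ± 0.12, not called against the 1-day controls). GAPDH and PPIA (-0.99 ± 0.12) are common reference genes, and of 25 such genes 14 fell and 5 rose. Of 36 sterol and fatty acid genes 15 fell and 3 rose; the sterol sensor INSIG1 changed by -1.15 ± 0.16. In the NRF2 and ferroptosis list 9 of 22 fell and 3 rose; the transferrin receptor TFRC changed by -1.18 ± 0.13 and NQO1 by -0.74 ± 0.13. Of 10 tested genes of the aryl hydrocarbon receptor list, a receptor that indole compounds can activate, 3 rose and 3 fell. TIPARP (1.53 ± 0.15) and the repressor AHRR (1.39 ± 0.20) were higher, and CYP1A1, the standard target, read 1.59, 0.482 and 1.42 CPM after IAA and 2.49, 0.798 and 1.68 CPM with DMSO and was not called (edgeR adjusted p = 0.464). MYC read 369, 306 and 296 CPM after IAA and 445, 498 and 449 CPM with DMSO, lower in every IAA library but not called (-0.52 ± 0.23, edgeR adjusted p = 0.0926). In 4 of 14 alternative runs MYC was called lower. MXD1, an antagonist of MYC, rose (1.40 ± 0.21).

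CEMIP, which degrades hyaluronan, read 122, 134 and 79.2 CPM after IAA (clones 1, 7 and 9) and 1.15, 2.25 and 1.19 CPM with DMSO (6.14 ± 0.45, edgeR adjusted p = 8.82e-11). GALNT5, a glycosyltransferase that starts mucin-type O-glycans, read 701, 523 and 595 CPM after IAA and 24.7, 25.6 and 27.2 CPM with DMSO (4.55 ± 0.42). THSD7A, a thrombospondin-domain membrane protein, read 33.6, 20.3 and 46.1 CPM after IAA and 0 counts in each DMSO library, at least 361-fold higher against the same floor. LURAP1L, an adaptor-like gene whose role is less well defined, read 31.7, 28.9 and 48.2 CPM after IAA and 1.53, 1.67 and 1.39 CPM with DMSO (4.55 ± 0.41). These genes were higher in all 3 clones with no overlap. Of 34 genes of the epithelial-mesenchymal and matrix list, 13 rose and 1 fell (median 0.15): integrin ITGA2 changed by 2.17 ± 0.19 and E-cadherin, CDH1, by 1.65 ± 0.18. The 1 that fell, vimentin, VIM, was at or below 4.43 CPM in every library. KLK7, a kallikrein protease, read 212, 176 and 187 CPM after IAA and 51.6, 38.0 and 42.3 CPM with DMSO (2.13 ± 0.30). Keratin KRT19 read 1966, 1270.4 and 1384 CPM after IAA and 634, 694 and 747 CPM with DMSO (1.15 ± 0.26), and the tight-junction genes CLDN4 and CLDN7 changed by 1.15 ± 0.21 and 1.54 ± 0.23. Among genes that fell, CYP24A1, the enzyme that inactivates vitamin D, read 16.5, 28.4 and 22.3 CPM after IAA and 293, 231 and 212 CPM with DMSO (-3.46 ± 0.30, edgeR adjusted p = 1.60e-09). PEG10, an imprinted gene derived from a retrotransposon, read 1.86, 5.06 and 6.87 CPM after IAA and 37.3, 49.3 and 53.1 CPM with DMSO (-3.38 ± 0.43), and CENPV, a centromere-associated protein, changed by -3.12 ± 0.33.

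Immediate early genes were another upward set, with 13 of 26 called higher and 2 lower (median 0.58). JUN, a subunit of the AP-1 transcription factor, read 66.5, 102 and 98.3 CPM after IAA and 10.5, 8.86 and 14.7 CPM with DMSO (2.98 ± 0.37, edgeR adjusted p = 6.09e-07). The groups did not overlap, and the call was lost against the 1-day controls. EGR1 changed by 1.41 ± 0.26, the phosphatase DUSP4 that limits ERK signalling by 1.32 ± 0.16, and KLF6 by 1.62 ± 0.23. The AP-1 letters TGACTCA or TGAGTCA on either strand were in 6.42% of promoters of genes that rose at least 2-fold, in 1.79% of those that fell and in 3.24% of all, and in 1 of 20 promoters of the immediate early list. Of 31 tested genes of the retroelement silencing list, not all of them silencers, 15 fell and 3 rose (median -0.31). TRIM28, the corepressor of KRAB zinc finger proteins, read 398, 368 and 373 CPM after IAA and 578, 643 and 738 CPM with DMSO (-0.78 ± 0.09), and SUV39H1, which methylates histone H3 at lysine 9, changed by -1.50 ± 0.18. The 3 that rose were ADAR, TET2 (0.56 ± 0.17, not called with limma on TPM) and DNMT3A (0.47 ± 0.10, edgeR adjusted p = 0.000621, and 0.0819 with the clone block). The DNMT3A call was lost in 2 of 14 alternative runs. The lists of Wnt targets (2 of 19 up, 2 down) and intestinal differentiation (1 of 11 up, 2 down) stayed near or below the shares over all genes.

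The clones gave the same direction for most calls. Of the 6198 called genes 5846 (94.3%) had one sign in all 3 clones, against 26.9% of genes not called; the calls rest on these same libraries, so this is a description. Across 10472 genes of at least 10 CPM, the log2 differences correlated at 0.65 between clones 1 and 7, 0.70 between 1 and 9 and 0.79 between 7 and 9, as descriptions across genes that share libraries. The interferon response had its highest median in clone 1: the median difference over the 44 membrane and related members was 2.62 in clone 1, 2.11 in clone 7 and 2.17 in clone 9. For mitochondrially encoded genes the medians were 1.41, 0.59 and 1.07, and for mitosis genes -2.10, -1.96 and -1.58. The clone 1 IAA library was also the deepest of the 6 and had the highest mitochondrial share, 10.5%; the part of either in these differences was not tested. The widest spread among called genes of at least 10 CPM with a symbol was that of CHURC1-FNTB, a read-through transcript that overlaps its neighbours, at 10.3, 23.3 and 21.7 CPM after IAA and 0.287, 5.66 and 8.03 CPM with DMSO. SECTM1, a secreted and membrane protein that costimulates T cells, read 21.2, 10.7 and 5.29 CPM after IAA and 1.05, 2.03 and 3.27 CPM with DMSO, with clone 1 highest after IAA and lowest with DMSO. The CHURC1-FNTB call (edgeR adjusted p = 0.0195) was lost without the DMSO library of clone 1 or the IAA library of clone 7, and the SECTM1 call against the 1-day controls.

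**Figure D3:**
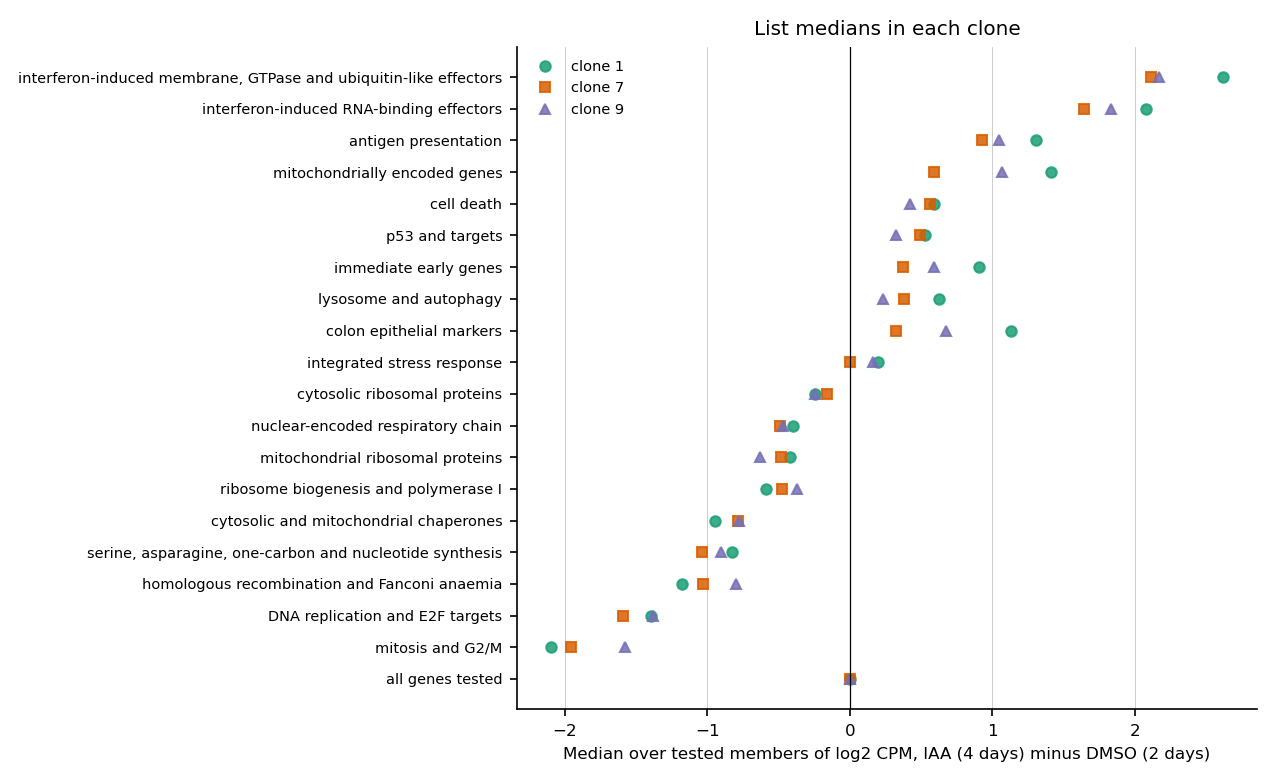
Median over the tested members of each list of the log2 CPM difference between the IAA library and the DMSO library of the same clone, with 1 symbol per clone. Clone 1 lies to the right for interferon-induced membrane and related genes (2.62, against 2.11 and 2.17), and the medians over all genes lie at 0.

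Protein-coding genes made up most of the calls. Of 13666 tested, 2847 rose and 2517 fell (20.8% and 18.4%). Of 2467 long non-coding genes 226 rose and 121 fell (9.16% and 4.90%), and of 909 pseudogenes 96 rose and 37 fell. The non-coding genes were much lower, with a median mean level of 0.643 CPM after IAA and 0.601 CPM with DMSO, against 27.4 CPM after IAA and 26.8 CPM with DMSO for protein-coding genes.

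Set against the earlier and later libraries, most interferon-induced genes were higher at 4 than at 2 days. The median change of the RNA-binding members against 2-day DMSO was 0.79 at 2 days, 2.08 at 4 days and 2.39 at 6 days, and that of the membrane and related members 0.78, 2.58 and 2.91; these values share the DMSO libraries. Over all genes, 893 were higher at 4 than at 2 days (4.73%) and 649 lower (3.44%), 8.17% in either direction. Among them 17 of 22 RNA-binding members were higher and 1 lower, and 36 of 44 membrane and related members were higher. IFI6 read 4.78, 2.76 and 3.47 CPM with DMSO, 16.1, 8.32 and 10.9 CPM after 2 days, 286, 177 and 197 CPM after 4 days and 434, 346 and 483 CPM after 6 days of IAA (4 against 2 days 4.21 ± 0.25, edgeR adjusted p = 1.01e-11). Of 39 mitosis genes 32 were lower at 4 than at 2 days, and 14 of 52 replication genes were. The medians for mitosis were -0.89, -1.80 and -1.85 at 2, 4 and 6 days, and for replication -1.06, -1.42 and -1.33. Mitochondrially encoded genes had medians of -0.16, 1.03 and 0.70, and 11 of 15 were higher at 4 than at 2 days; MT-ATP6 was 1.64 ± 0.30 (edgeR adjusted p = 0.00104). EIF3B, with -2.64 at 2 days and -2.77 at 4 days, had its change already at 2 days (-0.13 ± 0.15 between them, edgeR adjusted p = 0.664). The count of 1542 genes between 4 and 2 days was 580 with the clone block, 264 with only these libraries in the fit, 619 without the 2-day library of clone 7 and 677 without that of clone 9. With limma on TPM, 15.3% of the calls were upward, against 57.9% with edgeR, and the median over all genes was -0.15 against 0.03.

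Between 4 and 6 days the lists moved differently in the main fit. Over all genes 1012 were higher at 6 than at 4 days (5.36%) and 1343 lower (7.11%), 12.5% in either direction. With the clone block only 13 genes were called higher and 33 lower (46 in all), and with only these libraries 18 and 36 (54 in all). The list counts that follow are of the main fit, and the upward ones cannot all hold in those runs. The 6-day libraries were deep, at 45.7, 21.3 and 31.5 M counts (clones 1, 7 and 9), and the part of depth was not tested. With limma on TPM 56.2% of the calls were upward, against 1012 of 2355 with edgeR. Ribosome biogenesis genes were higher at 6 days for 18 of 40, with median changes of -0.70, -0.47 and -0.08 against DMSO at 2, 4 and 6 days. NF-kB genes were higher at 6 days for 12 of 27, among them CXCL8, which read 15.3, 6.34 and 17.9 CPM after 6 days and 0.864, 0.723 and 0.789 CPM after 4 days (4.04 ± 0.50, edgeR adjusted p = 5.22e-05). Sterol genes were lower at 6 days for 11 of 36, and CYP24A1 fell further (-1.77 ± 0.30, edgeR adjusted p = 0.000636). KLK7, MT-CO2 and MT-ATP6 had their highest of the 3 changes at 4 days. Between 4 and 6 days, however, 0 of 11 genes of the kallikrein list, which holds KLK7, were called. Of 15 mitochondrially encoded genes 2 were called lower at 6 days.

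**Figure D4:**
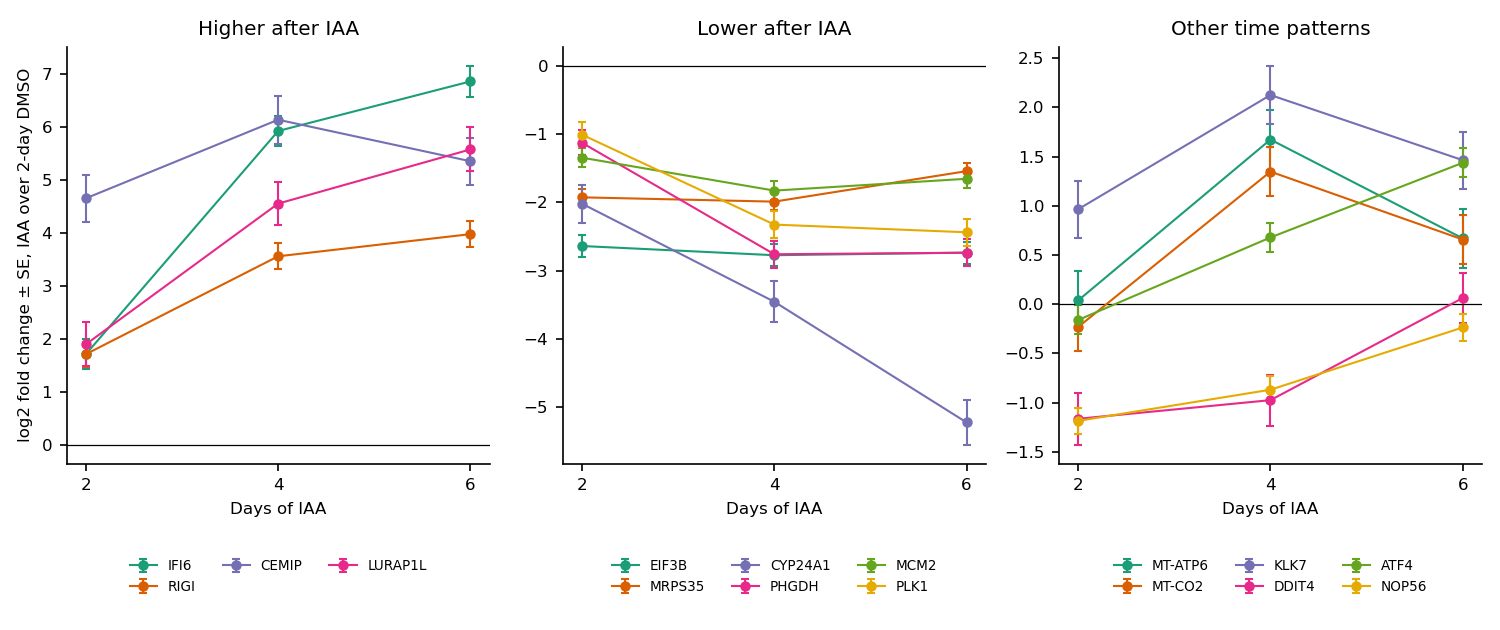
Log2 fold change ± standard error of 16 genes after 2, 4 and 6 days of IAA over the same 2-day DMSO libraries, in 3 panels with their own axes; lines join the times and the points share the DMSO libraries. IFI6 stands at 1.71, 5.92 and 6.86, EIF3B at -2.64, -2.77 and -2.74, and MT-ATP6 at 0.04, 1.67 and 0.67.

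The CDK4/6 inhibitor, which holds cells in G1, allows the question of what the IAA response is in cells held out of S phase. The response to IAA with the inhibitor (IAA plus inhibitor over inhibitor alone, both 4 days) was tested against the response without it as a difference of differences. Controls were 4-day libraries with the inhibitor and 2-day DMSO libraries without it, so control time cannot be told apart from the inhibitor here. In all, 414 genes had a higher response with the inhibitor (2.19%) and 472 a lower one (2.5%), 4.69% in either direction. Of 22 RNA-binding interferon-induced members none was higher and 1 lower, and of 44 membrane and related members 2 were higher and 2 lower, with median responses of 1.88 with and 2.08 without the inhibitor, and 2.30 with and 2.58 without. IFI6 read 444, 444 and 337 CPM with IAA and inhibitor and 11.3, 12.2 and 11.4 CPM with inhibitor alone, a response of 5.14 ± 0.25, and the difference from the response without inhibitor was -0.79 ± 0.35 (edgeR adjusted p = 0.222). The 1 lower RNA-binding member was SLFN5, with 1.00 ± 0.13 with the inhibitor against 2.66 ± 0.14 without. The difference was called for 24 of 52 replication genes, all upward, and for 15 of 39 mitosis genes, with median responses of -0.60 with and -1.42 without the inhibitor for replication, and -1.01 with and -1.80 without for mitosis. MCM2 read 107, 106 and 102 CPM with IAA and inhibitor and 152, 149 and 148 CPM with inhibitor alone (-0.51 ± 0.14; difference 1.32 ± 0.19, edgeR adjusted p = 0.000295). With DMSO and no inhibitor MCM2 read 202, 229 and 242 CPM, above all 6 libraries with the inhibitor. KLF5, an epithelial transcription factor, rose without the inhibitor (1.36 ± 0.13) and had -0.51 ± 0.13 with it, a difference of -1.87 ± 0.18 (edgeR adjusted p = 2.53e-06). Of the 15 mitochondrially encoded genes 14 had a lower response with the inhibitor, and the clone 9 library with inhibitor alone had a mitochondrial share of 16.1%, against 4.16 to 10.5% in the other 11 libraries of the comparison. The count of 886 genes was 384 with the clone block, 438 with only these libraries and 1349 with DESeq2. It was 1466 without the 4-day IAA library of clone 1, 511 and 410 without the DMSO libraries of clones 7 and 9, 526 without that inhibitor library of clone 9, and 498, 590 and 538 without the IAA plus inhibitor libraries of clones 1, 7 and 9. With limma on TPM, which shifts the median over all genes to 0.13 against -0.05, 84.6% of the calls were upward, against 46.7% with edgeR.

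The clones without MAVS address which changes are also seen without this adaptor of RNA sensing. Their response (IAA over DMSO, both 4 days) was tested against that of the MAVS-intact clones; 464 genes had a higher response in the knockout clones (2.46%) and 451 a lower one (2.39%), 4.85% in either direction. The interferon lists had much smaller responses in the knockout clones: 17 of 22 RNA-binding members and 36 of 44 membrane and related members had a lower response, with medians of 0.17 in knockout and 2.08 in intact clones, and 0.12 in knockout and 2.58 in intact clones. IFI6 read 18.3, 10.4 and 9.88 CPM after IAA and 13.6, 10.8 and 12.9 CPM with DMSO in knockout clones 1, 13 and 15, a response of 0.05 ± 0.24, and the difference from intact clones was -5.87 ± 0.37 (edgeR adjusted p = 7.33e-11). RIGI had 0.87 ± 0.24 in knockout and 3.56 ± 0.24 in intact clones. Of 22 antigen presentation genes 11 had a lower response. Cell-cycle genes fell less in knockout clones, with the difference called upward for 39 of 52 replication and 32 of 39 mitosis genes. PLK1 had -0.37 ± 0.18 in knockout and -2.33 ± 0.20 in intact clones (difference 1.95 ± 0.26, edgeR adjusted p = 4.17e-05). Other changes were seen in both, not always at the same size. CEMIP read 138, 60.6 and 99.0 CPM after IAA and 7.42, 3.94 and 6.15 CPM with DMSO in knockout clones, a response of 4.08 ± 0.37 against 6.14 in intact clones. The CEMIP level with DMSO was higher in knockout than in intact clones. EIF3B changed by -1.57 ± 0.15 in knockout and -2.77 ± 0.16 in intact clones, and DDIT3 by 2.06 ± 0.22 in knockout and 2.23 ± 0.23 in intact clones. For EIF3B the difference of 1.20 ± 0.21 was called (edgeR adjusted p = 0.00109), and for DDIT3 it was not (adjusted p = 0.863). The knockout clones are other clones with controls of 4 days, not 2, and their 6 libraries detected 22951 to 24893 genes, against 19311 to 21956 in the 6 intact libraries. Clone, control time and library set cannot be told apart from MAVS loss here. The count of 915 genes was 525 with the clone block, 341 with only these libraries, 1390 with DESeq2, 529 without the intact DMSO library of clone 9 and 570 without the knockout DMSO library of clone 1. With limma on TPM 81.1% of the calls were upward, against 50.7% with edgeR, with a median over all genes of 0.10 against -0.05.

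**Figure D5:**
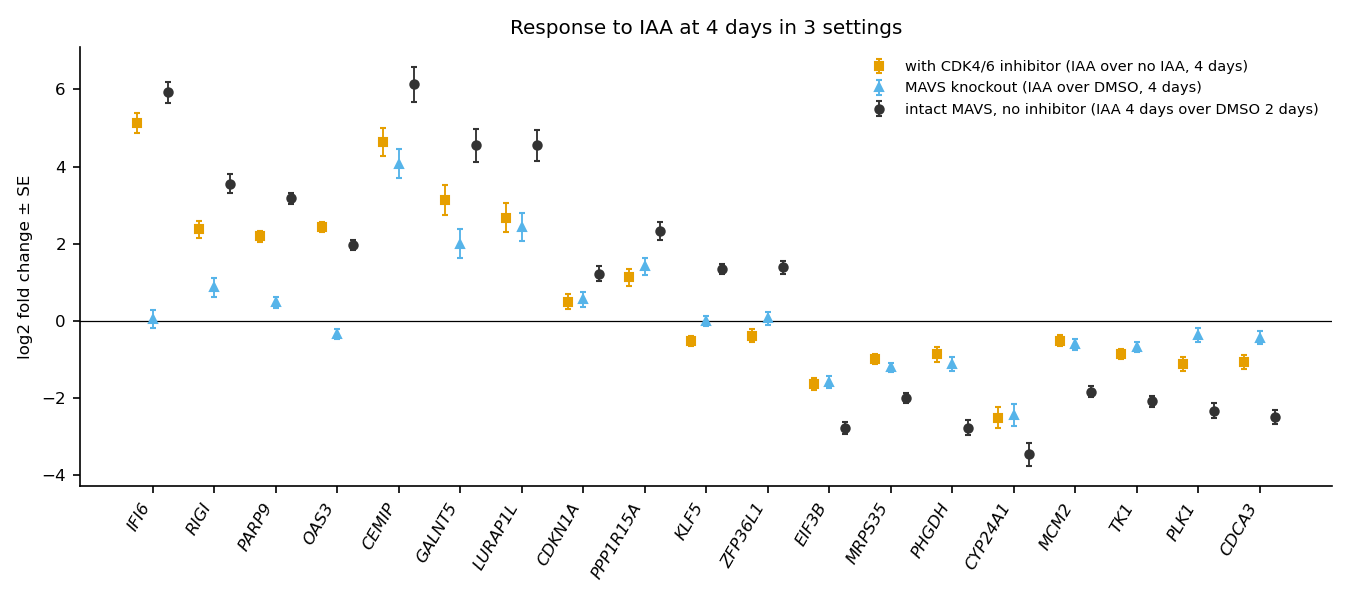
Log2 fold change ± standard error of 19 genes on IAA at 4 days with the CDK4/6 inhibitor (orange squares), in MAVS-knockout clones (blue triangles) and in MAVS-intact clones without inhibitor (black circles, over 2-day DMSO). IFI6 stands at 5.14, 0.05 and 5.92, and CEMIP at 4.64, 4.08 and 6.14 in that order.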

How the data were processed

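Poly-A RNA of HCT116 degron clones was sequenced, and gene-level estimated counts and TPM were deposited by the authors in 1 table each. Per the submitters' processing notes, Salmon 1.10.2, kallisto 0.50.0, DESeq2 and GRCh38 were used, with no role given. The annotation and strand setting were not given in the sources used here. Estimated counts were rounded to whole numbers. Genes passing filterByExpr (18877 of 61228) were fitted with edgeR 4.0.16 (R 4.3.3) by quasi-likelihood with TMM factors over 32 degron libraries in 12 groups, so that all share 1 estimate of spread (20 residual degrees of freedom), and p-values were adjusted by Benjamini-Hochberg over all genes at 0.05. Standard errors are the log2 change divided by the square root of F. Library totals ran from 9.53 to 45.7 M counts. Fits were tested on simulated data, in which libraries were independent and only the 4-day IAA group was changed. Of 16340 genes, 102 were changed 2-fold and 98 were changed 4-fold. Far more genes were called in the real data, so recovery there can differ. Simulated 2-fold changes were recovered for 64.7% of changed genes in 4-day IAA against DMSO. The share was 43.1% in the inhibitor comparison and 36.3% in the MAVS comparison, so a difference not called there does not show equal responses. Alternatives were RLE factors, no count filter, only the compared groups, a clone block, DESeq2 1.42.0, limma 3.58.1 on log2(TPM + 1), 1-day controls alone or averaged with the 2-day ones, and leaving out each library; log2 changes of genes near 0 depend on the prior count.

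Among the MAVS-intact degron libraries the same clone number names the same cell line, so the numbers pair these libraries. Same-clone deviations from the group means correlated at 0.03, 0.04 and 0.10 (clones 1, 7 and 9). Replicates are separate clones of 1 parental line. The main p-values rest on the spread within groups pooled over all libraries of the fit, MAVS-knockout clones included. They therefore do not measure the spread between clones 1, 7 and 9 alone. The same clones recur in several groups, and without the clone block their libraries were treated as independent. Replicate libraries differed beyond counting noise, with a chi-square per degree of freedom of 7.54 to 72.0. No column of the tables lacked a matching sample.

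The members and gene lists were chosen with earlier results of these data known. Named genes were the 12 greatest increases and 12 greatest decreases with at least 10 CPM in the higher group and 1 direction in the 3 clones, the called members of each list with the smallest p in each direction (up to 5 higher and 5 lower, or 3 and 3 in lists under 15 tested members), genes named by role, the 4 called genes with the widest clone range, and for each other comparison the 6 smallest p in each direction; not all are printed, and a few genes are not reported here. Promoters are RefSeq sequences of GRCh38.p14. The difference of 2 responses was tested as an interaction contrast.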

Additional observations from a re-analysis of the deposited data

Results flagged for a closer look

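For 36 results the IAA response at 4 days differed between 2 settings by a direct test of the difference (edgeR, adjusted p under 0.05). Most named genes were those with the smallest p in each direction, so their sizes are selected; the others (for the inhibitor EIF3B, MRPS35, RIGI and XRCC6, and for MAVS these and ADAR, EIF2AK2, IFIH1, IRF9 and STAT2) were named by role. Both tests share the MAVS-intact IAA and DMSO libraries. These DMSO libraries were of 2 days, and the controls of the inhibitor and knockout settings were of 4 days.

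With the CDK4/6 inhibitor against without it, the response was lower (log2 difference in brackets) for KLF5 (-1.87), for the RNA-decay factor ZFP36L1 (-1.77), for CSAG3 (-1.67), for SLFN5 (-1.66), for RIGI (-1.18), for the Wnt transcription factor TCF7 (-1.12) and for the ETS factor ELK3 (-0.98). CSAG3 has near-identical copies, and reads may be shared among them. It was higher for PHGDH (1.90), for the histone variant H2AZ1 (1.45), for the respiratory complex I genes NDUFAB1 (1.42) and NDUFS3 (1.20), for MCM2 (1.32) and MCM7 (1.28), for EIF3B (1.14), for MRPS35 (1.01) and for XRCC6 (0.72).

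In MAVS-knockout against MAVS-intact clones, the response was lower for IFI6 (-5.87), PARP9 (-2.70), RIGI (-2.69), IFIH1 (-2.68), OAS3 (-2.31), the phospholipid scramblase PLSCR1 (-2.06), DTX3L (-1.93), IRF9 (-1.59), EIF2AK2 (-1.47), STAT2 (-1.07) and ADAR (-0.49). It was higher for the cell-cycle genes CDCA3 (2.06), PLK1 (1.95), GTSE1 (1.79) and TK1 (1.42), for the nucleosome-binding protein HMGN2 (1.36), for UHRF1 (1.29), for EIF3B (1.20), for XRCC6 (0.90) and for MRPS35 (0.79). EIF3B, MRPS35 and XRCC6 were called in both comparisons, which share the intact libraries.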

How the results depend on the processing

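Of 290 named genes called after 4 days of IAA, 213 were called in every alternative run, and of 46 named in the other comparisons 41 were. The comparison of 4-day IAA with DMSO gave 6198 genes, 10270 against 1-day controls, 3892 when the compared groups were fitted alone and 5052 to 6174 leaving out a library. Between 4 and 2 days 1542 genes became 2561 with limma on TPM, 264 with only the compared groups and 619 to 2192 leaving out a library, and between 6 and 4 days 2355 became 54 with only the compared groups and 1660 to 3470 leaving out a library. The inhibitor comparison gave 886 genes, 1349 with DESeq2, 1472 with limma on TPM, 438 with only the compared groups and 410 to 1466 leaving out a library. The MAVS comparison gave 915 genes, 1390 with DESeq2, 341 with only the compared groups and 529 to 1285 leaving out a library. The cause of these moves was not tested. Where a library left 2 in its group, the pooled spread of the other groups was used.

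With the replicate block (clone as the pairing), the counts were 3963, 580, 46, 384 and 525 in the same order of comparisons. The block could be fitted with the compared groups alone, so both choices change together. In the MAVS comparison each knockout clone was a block of its own, and none was paired with an intact clone. Some calls of named genes were lost with the block, and those printed above carry their blocked value.

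Log2 changes turned round, against 1-day controls, for APTX (-0.0749), ATF4 (-0.16), CCND1 (-0.0482), DPP4 (0.015), EIF2B4 (-0.70), EIF3J (-0.45), EMC7 (-0.34), ETV5 (0.0447), KRT18 (-0.0284), LRAT (0.37), NDUFA12 (-0.63), NFKBIB (-0.90), RPL37 (-0.27), RPS27 (-0.79), TERF2IP (-0.0133), TUBB3 (-0.0437) and UTP14A (-0.50). With both controls averaged they turned round for EIF2B4 (-0.16), EIF3J (-0.0282), EMC7 (-0.00743), NDUFA12 (-0.11), NFKBIB (-0.0567), RPL37 (-0.00957), RPS27 (-0.15) and UTP14A (-0.0167). With limma on TPM they turned round for CYP1A1 (0.0879) and LIG3 (0.00774). The cause was not tested. Depth limits genes with few counts, such as the interferons, and the 1-day controls hold clones 1 and 9 alone.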
